A study of Sus scrofa with 12 samples.

Results

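The left anterior descending artery (LAD) and the right coronary artery (RCA) of the same pig were compared by microarray, 28 days after a stent had been placed in each. The comparison used 10 of the 12 arrays of the study, 5 of LAD and 5 of RCA tissue, which came from the 5 of 6 pigs whose array titles named both arteries. The sixth pig, number 4745 with a sirolimus-eluting stent (SES), gave an RCA segment and a left circumflex (LCX) segment and was left out of the comparison. All animals were Yorkshire farm pigs, and both arteries of a pig carried the same kind of stent. Pigs 4746 and 4747 had a bare metal stent (BMS), pig 4750 an SES, and pigs 4757 and 4751 a zotarolimus-eluting stent (ZES). The labels give neither age nor sex of the pigs, and an unstented artery was not analysed here, so every value describes stented wall. Each array held RNA from tissue dissected by hand off 1 stent. The SES thus stands for 1 animal in the comparison.

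The LAD runs down the front of the heart and feeds the front wall of the left ventricle and the septum, whereas the RCA runs around the right side and feeds the right ventricle and, in pigs, much of the back wall. Stent placement injures the wall, and within weeks smooth muscle cells migrate inward, divide and lay down matrix to form a neointima, while macrophages and lymphocytes gather around the struts. Sirolimus and zotarolimus bind the small protein FKBP1A and block the kinase MTOR, which slows the division of smooth muscle cells. MHC class II molecules, named SLA in the pig, present peptides to helper T cells and are carried mainly by macrophages, dendritic cells and B cells.

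The values are log2 signals, on which a difference of 1 is a doubling, and values of the 5 pigs are given throughout in the order BMS pigs 4746 and 4747, SES pig 4750, ZES pigs 4757 and 4751. ACTA2, the actin of smooth muscle and a marker of the artery wall, had log2 signals from 13.50 to 16.17. SLA-DRA, an MHC class II chain and a marker of antigen-presenting cells, had signals from 9.02 to 11.83. Both were above each array's background level in all 10 arrays. In whole tissue, fewer cells of a kind and less RNA per cell cannot be told apart. None of 8 array controls differed between the arteries beyond the spread over pigs (exact sign-flip permutation tests, two-sided, p from 0.3125 to 1, with 0.0625 the smallest p that 5 pigs allow). The 28S ribosomal control stood apart on 2 arrays, the LAD of ZES pig 4757 at 13.42 and the RCA of BMS pig 4746 at 13.30, against 6.95 to 10.12 on the other 8. With the 28S signal as a covariate in limma, 1 of the 90 genes examined and 2 of the 28 gene lists had another sign of difference, and without the pigs of those 2 arrays 5 and 5 did. Of the 10 arrays, the RCA arrays of SES pig 4750 and ZES pig 4757 had the most probe sets at 0. These numbered 770 and 1153, against 41 to 758 elsewhere. Their background (4.47 and 4.19) and spike-in control signals (14.90 and 14.60) were the lowest. For probe sets at 0, LAD minus RCA was 238 and 193 in the BMS pigs and -481, -654 and -268 in the others. When limma was adjusted for the spike-in signal, 2 genes and 4 lists changed sign.

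No gene differed between LAD and RCA at the threshold. Of 16799 probe sets tested with limma, with the pig as a block, 0 (0%) had a Benjamini-Hochberg adjusted p under 0.05, and the smallest adjusted p was 0.721. At an unadjusted limma p under 0.05 there were 1153 (6.86%), of which 638 (3.8%) were higher and 515 (3.07%) lower in the LAD; 791 (4.71%) were higher and 634 (3.77%) lower in all 5 pigs, and 94 (0.56%) and 76 (0.452%) had no overlap between LAD and RCA arrays. Counted once per named gene, 376 of 5793 genes (6.49%) passed that unadjusted level, 180 (3.11%) higher and 196 (3.38%) lower. The differences were centred: 50.6% of genes had a positive mean difference, and the median over all genes was 0.0070 with quartiles of -0.33 and 0.35. Effects of known size were added to simulated arrays of this design, 50 probe sets for each size. The same test called 0% of changes of 1 on the log2 scale and 24% of changes of 2. It called 52% of changes of 3 and 56% of changes of 4. A difference of 1 was thus not detected in that simulation of 5 pigs. The genes and gene groups are therefore described by their values and by how many pigs shared a direction. Every gene given with an unadjusted p at its brightest probe set had an adjusted p of 0.721 to 0.746 by limma.

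**Figure D1:**
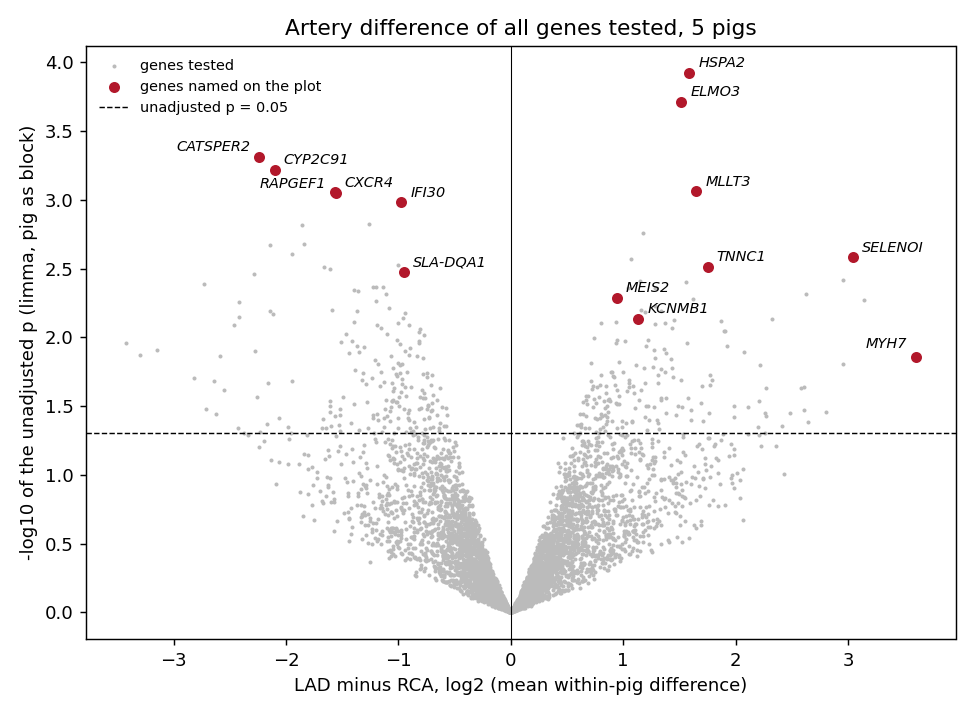
Each point is 1 of 5793 genes, placed by its mean LAD minus RCA difference over 5 pigs (log2, horizontal) and by the negative log10 of its unadjusted p (vertical), with the level of 0.05 dashed. The cloud is even on both sides, with 180 genes above the line on the right and 196 on the left; HSPA2 on the right and CATSPER2 on the left have the smallest p.

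The genes of antigen presentation were lower in the LAD than in the RCA in most pigs. Of 17 measured genes of MHC class II and antigen presentation, 16 had a negative mean difference, against 49.4% of all genes, and 6 had an unadjusted p under 0.05, against 3.38% of genes in that direction. Of the 17, 5 were lower in all 5 pigs, against 4.45% of all genes. The median over the list was -0.67, and the median within each pig was negative, at -0.69, -0.97, -0.37, -0.70 and -0.41. It was -0.49 without the 2 pigs with high 28S signals and between -0.86 and -0.54 when any 1 pig was left out.

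SLA-DQA1, the alpha chain of an MHC class II molecule, had log2 signals of 10.41, 10.73, 12.31, 11.35 and 11.13 in the LAD and of 11.09, 12.27, 12.94, 12.08 and 12.32 in the RCA. The RCA was the higher artery in every pig, although the SES pig's LAD lay above the RCA of 3 other pigs and the groups overlapped. The mean difference was -0.95 ± 0.26 (SE, 5 pigs, limma, unadjusted p = 0.00334, adjusted p = 0.721), a 1.94-fold lower level. Every SE given is the moderated one of limma, which draws on all probe sets and not on the 5 differences alone. SLA-DRB1, a class II beta chain, read 9.16, 9.22, 11.29, 9.85 and 10.99 in the LAD and 10.15, 10.73, 12.23, 10.52 and 11.40 in the RCA, lower in the LAD of every pig with a mean difference of -0.91. Its dim probe sets below the filter gave 2.83, higher in the LAD of every pig, and 1.51. SLA-DQB1, the partner of SLA-DQA1 and named here after its values were seen, had within-pig differences of -1.08, -0.97, -0.53, -1.01 and -0.49. At their brightest probe sets these 3 chains shared both their direction in every pig and a level that was highest in the SES pig in either artery.

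SLA-DRA, the alpha chain that pairs with SLA-DRB1, had log2 signals of 9.35, 9.02, 10.91, 10.45 and 10.21 in the LAD and of 10.42, 11.36, 11.83, 10.03 and 10.95 in the RCA. It was lower in the LAD of 4 pigs and higher by 0.42 in that of ZES pig 4757, with a mean difference of -0.93 ± 0.37 (SE; limma, unadjusted p = 0.0266). CD74, the invariant chain that guides class II molecules through the cell, was named after its values were seen because its pigs disagreed. Its differences were -1.54 and -2.66 in the BMS pigs and -0.09, 0.61 and 0.31 in the others, so that its mean of -0.67 came from the 2 BMS pigs. The class I light chain B2M had a mean difference of 0.06, and the class I gene SLA-2 of -0.01; both were picked out after their values were seen, as the 2 members of the list nearest to 0.

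IFI30, a lysosomal reductase that opens disulphide bonds of antigens before they are loaded on class II molecules, separated the arteries completely. Its log2 signals were 12.67, 12.82, 13.54, 13.35 and 13.30 in the LAD and 13.78, 13.73, 14.50, 14.61 and 13.92 in the RCA. Every RCA array lay above every LAD array, a separation found in that direction for 29 of 5793 genes (0.501%). The difference was -0.98 ± 0.23 (SE; limma, unadjusted p = 0.00104, adjusted p = 0.721), or 1.97-fold, and a second probe set of the gene gave -1.04, also lower in all 5 pigs. CD40, the receptor through which helper T cells activate antigen-presenting cells, was lower in all 5 pigs at its brightest probe set, with a mean difference of -1.19, but its other probe sets gave 0.38 and -0.18.

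**Figure D2:**
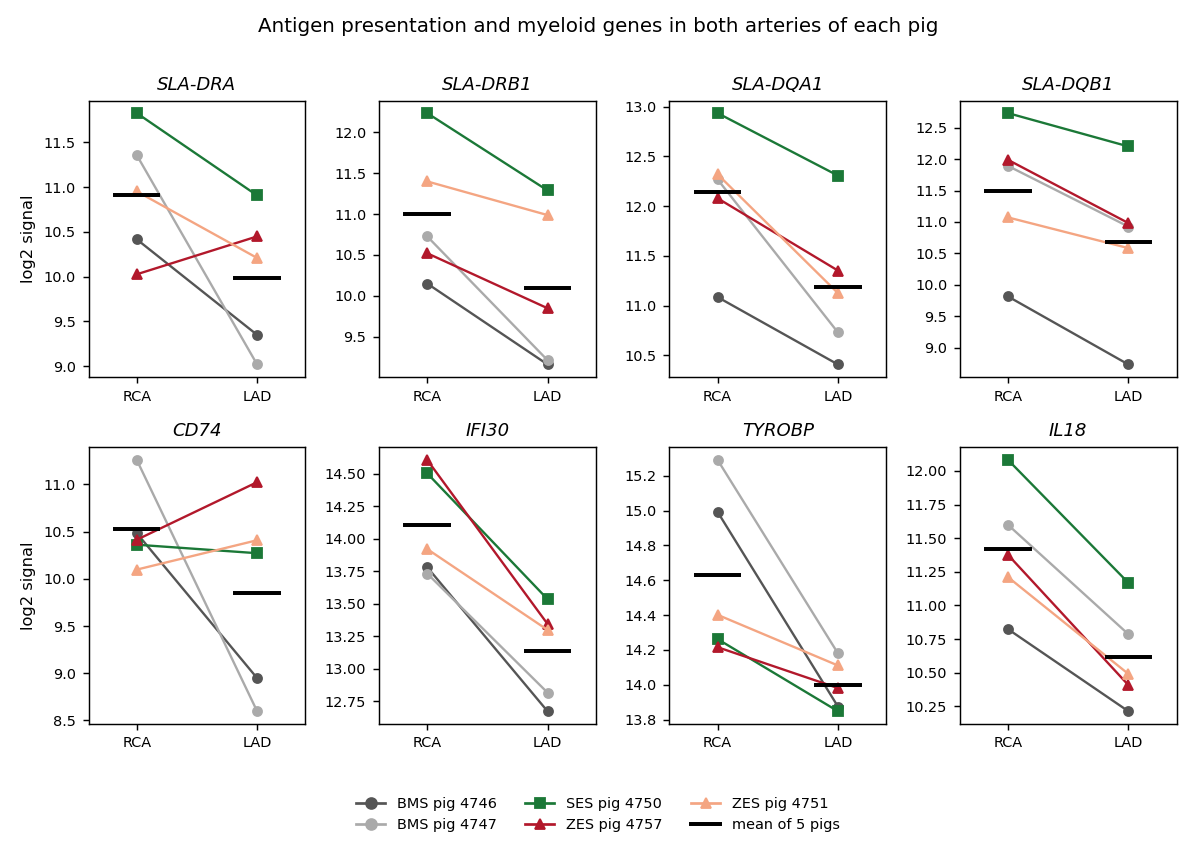
Log2 signal of 8 genes in the RCA (left) and LAD (right) of each pig, 1 line a pig, with the mean of the 5 pigs as a black bar. For IFI30, and narrowly for TYROBP, the lowest RCA value lies above the highest LAD value. For CD74 the 2 BMS pigs (grey) slope down and 2 of the other 3 slope up.

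Genes of monocytes and macrophages were lower in the LAD on average. Of 16 measured 13 had a negative mean difference, against 49.4% of all genes, and 4 an unadjusted p under 0.05, all lower, against 3.38%, with a median of -0.45. Of the 16, 1 was lower in all 5 pigs, against 4.45% of all genes. All 5 pig medians were negative, at -0.63, -1.64, -0.21, -0.32 and -0.11, and the list's median was -0.12 without BMS pig 4747. It was -0.84 in the BMS pigs alone and -0.09 in the drug-eluting pigs alone. TYROBP, a signalling adaptor of myeloid and natural killer cells, read 13.87, 14.18, 13.85, 13.98 and 14.11 in the LAD and 14.99, 15.29, 14.26, 14.22 and 14.40 in the RCA. All its LAD values lay below its RCA values, but narrowly: the highest LAD value was 14.18 and the lowest RCA value 14.22. Over all 5793 genes, 29 (0.501%) had no overlap in that direction, and picking genes by a small p favours such genes. Within pigs the gaps of TYROBP were widest in the BMS pigs, and its mean difference was -0.63 ± 0.25 (SE, limma, unadjusted p = 0.0235). SPP1, the matrix protein osteopontin made by macrophages and activated smooth muscle, had differences of -2.06, 1.43, -1.13, -3.42 and -0.76, so that BMS pig 4747 opposed the other 4. The scavenger receptor CD163 was the higher one in the LAD of 3 pigs, with a mean of 0.29, and CD14, named after its value was seen, had a mean of -0.37. The list thus held members that did not share its direction. The 5 B and plasma cell genes had a median of -0.04, with pig medians of 0.94, -0.38, -0.81, 0.66 and 0.27.

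CXCR4, CD53 and PIK3AP1 were among the 12 genes with the smallest p that were lower in the LAD, and IL18 had the smallest p of the cytokine list. CXCR4, the receptor for the chemokine CXCL12, had log2 signals of 10.59, 11.61, 12.40, 10.68 and 11.68 in the LAD and of 10.71, 13.46, 14.01, 13.71 and 12.87 in the RCA. It was lower in the LAD of all 5 pigs, with differences from -3.04 in ZES pig 4757 to -0.11 in BMS pig 4746, and averaged -1.56 ± 0.36 (SE; limma, unadjusted p = 0.000877). CD53, a membrane protein of white blood cells, differed by -1.03, -0.58, -1.14, -1.89 and -0.40, and a second bright probe set by -0.62 on average. PIK3AP1, an adaptor of B cell and myeloid signalling, differed by -2.03, -0.50, -2.40, -2.55 and -1.73. IL18, an inflammatory cytokine of macrophages, read 10.21, 10.79, 11.17, 10.41 and 10.49 in the LAD against 10.82, 11.60, 12.08, 11.38 and 11.21 in the RCA. The within-pig differences of IL18 ran only from -0.97 to -0.61, the steadiest of the genes in this paragraph.

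Lymphocyte genes were near the limit of the arrays. Of 11 measured genes of T and natural killer cells 7 had a negative mean difference, against 49.4% of all genes, but only 1 of the 11 was above background on all 10 arrays. LCK, a kinase of T cells, was lower in the LAD of every pig with a mean of -2.28, yet it was above background on 2 LAD and 4 RCA arrays, and the difference of -5.60 in the SES pig stood far from the others, which lay between -1.70 and -1.15. Of 31 cytokines and chemokines 20 had a negative difference and 1, IL18, an unadjusted p under 0.05, against 49.4% and 3.38% of all genes, with a median of -0.42 (-0.13 without ZES pig 4757). CCL2, which draws monocytes, had differences of 0.98, -0.27, -0.69, -0.57 and -0.76, and CCL5, which draws T cells, of 1.38, 0.05, -1.19, -1.41 and -0.98. Both were the higher ones in the LAD of BMS pig 4746 and lower in the LAD of all 3 pigs with drug-eluting stents.

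Genes of the smooth muscle contractile apparatus were higher in the LAD on average, but the size of the difference came from 2 pigs. All 21 measured genes of the list had a positive mean difference, against 50.6% of all genes, 8 had an unadjusted p under 0.05, against 3.11% in that direction, and 2 were higher in all 5 pigs, against 4.04%. The list's median was 0.84. By pig the medians were 0.23, -0.24, 1.66, 2.43 and 0.19, so that the SES pig and ZES pig 4757 carried the difference and BMS pig 4747 ran the other way. The median was 0.44 without ZES pig 4757, 1.22 without BMS pig 4747, 0.56 without the 2 pigs with high 28S signals, 0.69 with the 28S signal as a covariate and -0.04 in the BMS pigs alone. After adjustment for the spike-in signal it was 0.62. The SES pig and ZES pig 4757 were also those whose RCA arrays had the most probe sets at 0. Whether those arrays set the size of the difference was not tested.

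ACTA2 had log2 signals of 15.75, 15.31, 15.44, 15.20 and 15.51 in the LAD and of 16.17, 15.48, 13.93, 13.50 and 15.23 in the RCA. The 5 LAD arrays were nearly level, and the RCA arrays of the SES pig and of ZES pig 4757 were low. The mean difference was 0.58 ± 0.33 (SE; limma, unadjusted p = 0.103), 1.49-fold, and was negative in both BMS pigs. MYL9, the light chain through which myosin is switched on in smooth muscle, had 14.61, 13.02, 13.37, 15.55 and 13.91 in the LAD and 14.40, 13.31, 10.68, 11.38 and 13.49 in the RCA. Its differences of 2.70 and 4.17 in the SES pig and ZES pig 4757 stood against -0.29 to 0.41 in the other 3. TAGLN, an actin-binding protein, followed the same order with -0.17, -0.24, 2.14, 3.08 and 0.70, and so did CNN1, calponin, with 0.48, -0.46, 2.49, 4.04 and 0.62. KCNMB1, the beta subunit of the calcium-activated potassium channel that relaxes the artery, was spread over more pigs, with 1.21, 0.73, 1.67, 2.43 and -0.36 and the smallest p of the list (limma, unadjusted p = 0.0073). DES, the intermediate filament of muscle, named after its value was seen, had the widest single difference of the named contractile genes, 5.78 in ZES pig 4757.

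**Figure D3:**
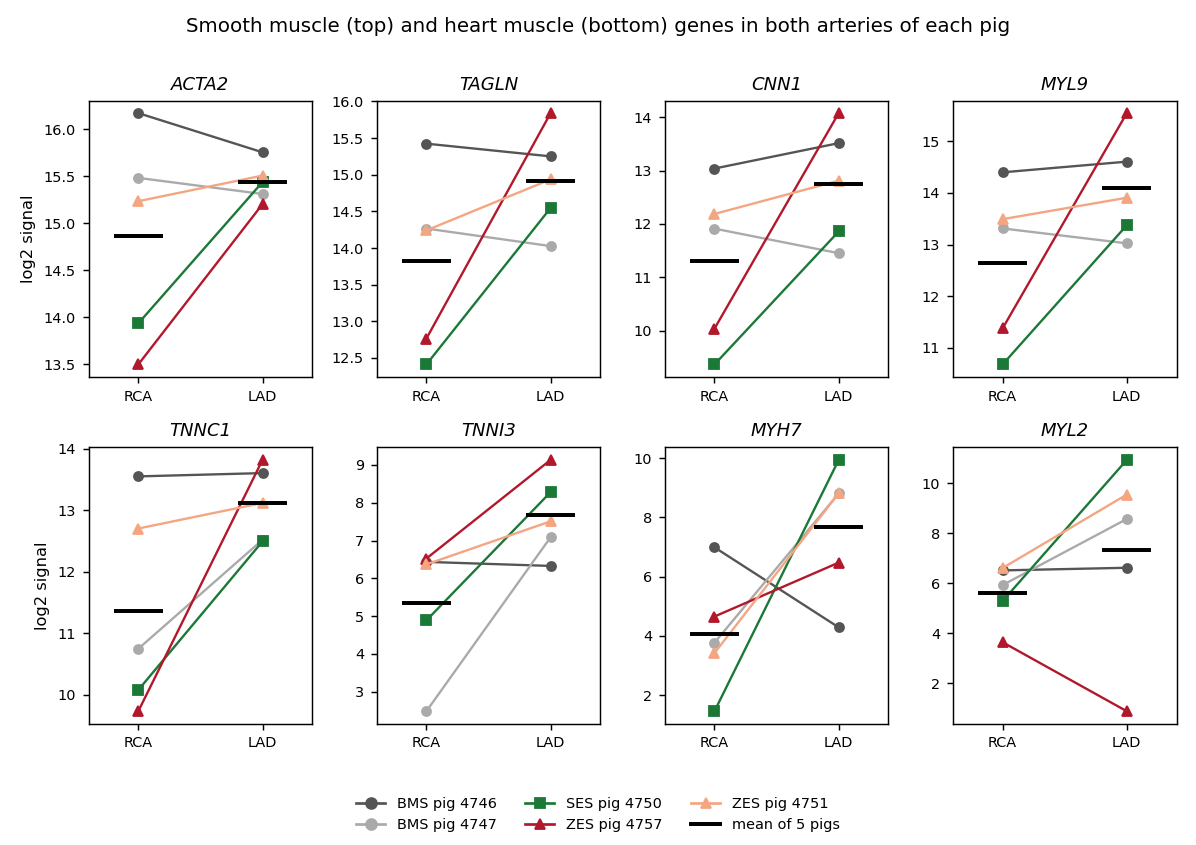
Log2 signal in the RCA (left) and LAD (right) of each pig for 4 smooth muscle genes (top) and 4 heart muscle genes (bottom), with the mean of 5 pigs as a black bar. In the top panels the SES pig (green) and ZES pig 4757 (dark red) start low in the RCA and climb steeply, while the other 3 pigs stay closer to flat; in the bottom panels different pigs climb for different genes.

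Genes of heart muscle, which lies against the outer wall of the coronary arteries, were also higher in the LAD on average. Of 29 listed genes 22 were on the array and 16 were left by the filter on low values. Of those 16, 13 had a positive mean difference, against 50.6% of all genes, and 4 an unadjusted p under 0.05, against 3.11%. The median was 1.33, but 0.52 without the SES pig, 0.57 with a pseudocount of 64, 0.38 with the lowest 50% of probe sets left out and 2.16 without the 2 pigs with high 28S signals. A dim gene can pass the filter through its LAD values alone, so these counts and medians are a description of the genes that passed. Levels were low: the list's mean log2 signal on an array was 5.98 to 8.31 in the LAD and 5.26 to 7.0 in the RCA. Only 3 of the 16 genes were above background on all 10 arrays, and none was at 0.

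MYH7, the myosin heavy chain of slow and ventricular heart muscle, had log2 signals of 4.29, 8.81, 9.94, 6.48 and 8.82 in the LAD and of 6.99, 3.77, 1.46, 4.66 and 3.42 in the RCA. It was above background on 4 LAD and 2 RCA arrays, higher in the LAD of 4 pigs and lower in that of BMS pig 4746, so its mean difference of 3.61 is set mostly against RCA values at background. TNNI3, the inhibitory troponin of heart muscle, read 6.33, 7.09, 8.28, 9.13 and 7.51 in the LAD and 6.44, 2.48, 4.89, 6.52 and 6.37 in the RCA, with a mean difference of 2.33. MYL2, the ventricular light chain, was the higher one in the LAD by 5.65 in the SES pig and lower there in ZES pig 4757 by a difference of -2.76. Side by side over the pigs, the heart muscle medians of -0.62, 1.51, 2.41, 0.38 and 0.78 stood against contractile medians of 0.23, -0.24, 1.66, 2.43 and 0.19; the SES pig was high in both, ZES pig 4757 in the contractile list and BMS pig 4747 in the heart muscle list. The part of heart muscle in the contractile difference was not tested beyond a covariate. With the heart muscle list's mean level as a covariate, the contractile median was 0.66 and the MHC class II median -0.75. TNNC1, a troponin of slow and heart muscle, was 1 of the 3 members above background on every array, with 13.61, 12.52, 12.49, 13.82 and 13.12 in the LAD and 13.55, 10.75, 10.07, 9.73 and 12.70 in the RCA. It was higher in the LAD of all 5 pigs, by only 0.05 in BMS pig 4746, and averaged 1.75 ± 0.48 (SE; limma, unadjusted p = 0.00307).

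Transcription factors that pattern the embryonic heart and its vessels had a positive median difference in every pig. Of 10 measured genes 7 had a positive mean difference, against 50.6% of all genes, 3 an unadjusted p under 0.05, against 3.11%, and the same 3 were higher in all 5 pigs, against 4.04%. The pig medians were 0.40, 0.31, 0.64, 0.98 and 0.26 around a list median of 0.59, which was 0.35 without ZES pig 4757 and 0.33 without both pigs with high 28S signals. MEIS2, a homeobox factor of cardiac and neural crest development, had log2 signals of 11.40, 10.62, 11.42, 10.78 and 10.81 in the LAD and of 10.39, 9.57, 10.12, 9.95 and 10.29 in the RCA. Every LAD array was above every RCA array, a separation found in that direction for 28 of 5793 genes (0.483%), and the difference was 0.94 ± 0.28 (SE; limma, unadjusted p = 0.00514, adjusted p = 0.721). NR2F2, the nuclear receptor COUP-TFII of atrial and venous identity, differed by 1.05, 2.17, 0.13, 1.12 and 1.53, while a second probe set that passed the filter gave a mean of 0.55 (limma, unadjusted p = 0.267) with 2 pigs below 0. HEY2, a Notch target of arterial and ventricular identity, differed by 0.38, 1.35, 0.64, 0.12 and 0.86, but 1 of its other 2 probe sets gave -0.27 and the other 1.83. GATA4, GATA6 and MEIS1 had mean differences of 0.45, -0.05 and -0.13. HAND2, TBX5 and TBX20 were not analysed here, since no probe set named them singly.

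The collagens were higher in the LAD on average, with the largest pig medians in the SES pig and ZES pig 4757. Of 11 measured collagen genes 10 had a positive mean difference, against 50.6% of all genes, and 2 an unadjusted p under 0.05, against 3.11%, with a median of 0.55 and pig medians of 0.38, 0.24, 1.63, 0.80 and 0.20. COL1A2, the second chain of type I collagen, read 8.12, 8.77, 7.94, 9.50 and 8.25 in the LAD and 7.41, 8.53, 5.92, 6.78 and 7.24 in the RCA. It was higher in the LAD of every pig, with an overlap between the groups and a mean difference of 1.34 ± 0.48 (SE; limma, unadjusted p = 0.0169), while a second, dim probe set gave -0.32. COL8A1, a short-chain collagen that smooth muscle makes after injury, differed by 1.24, 0.78, 2.33, -0.35 and 1.0, and its 3 other probe sets that passed the filter gave smaller means of 0.67, 0.20 and 0.15. COL3A1, a main fibrillar collagen of the artery wall, had a mean difference of 0.41 with 3 of 5 pigs higher.

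Of 29 proteoglycans and matrix glycoproteins 22 had a positive mean difference, 3 with an unadjusted p under 0.05 and a higher value in the LAD and 1, SPP1, with a lower one, against 3.11% and 3.38% of all genes. Their median was 0.41, with pig medians of -0.25, 0.19, 1.31, 1.33 and 0.08, and was 0.16 without the SES pig and 0.21 without ZES pig 4757. DCN, the small proteoglycan decorin that binds collagen fibrils, had differences of -0.55, -0.07, 1.33, 3.70 and 0.46, and TNC, tenascin C of remodelling tissue, of -0.78, -0.57, 3.44, 5.38 and -1.08. FN1, fibronectin, ran the other way, with 0.38, 0.35, -0.23, -2.51 and -0.54. For these 3 genes the widest differences were again in ZES pig 4757, the pig whose LAD array had the high 28S signal. The RCA array of that pig had the most probe sets at 0.

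The gene with the smallest p was HSPA2, a member of the 70-kilodalton heat shock family best known from the testis. Its log2 signals were 12.97, 12.55, 11.82, 12.59 and 12.24 in the LAD and 10.98, 11.33, 10.61, 10.13 and 11.16 in the RCA. Each LAD array was above each RCA array, within-pig differences ran from 1.08 to 2.45, and the mean was 1.59 ± 0.29 (SE; limma, unadjusted p = 0.000119, adjusted p = 0.721), a 3.01-fold higher level with a 95% interval of 0.97 to 2.21 on the log2 scale. Over all 5793 genes, 28 (0.483%) had every LAD array above every RCA array. Picking genes by a small p favours such genes and intervals far from 0. ELMO3, an engulfment and motility protein, differed by 1.76, 1.56, 2.45, 1.21 and 0.59. MLLT3, a chromatin reader, differed by 1.46, 1.44, 1.41, 2.56 and 1.39 with no overlap between the arteries, but a second probe set of the gene gave a mean of -0.72. CD59, which shields cells from complement, averaged 1.07, CDO1, a cysteine-degrading enzyme, 1.04, and PROM1, a membrane protein of progenitor and epithelial cells, 1.56. CCDC17 and SELENOI, an enzyme of phospholipid synthesis, had larger means of 2.95 and 3.05 but were above background on only 2 of the 5 RCA arrays each.

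Of the genes with the smallest p that were lower in the LAD, 4 beside IFI30 had no overlap between the arteries. Over all 5793 genes, 29 (0.501%) had no overlap in that direction, and picking genes by a small p favours such genes. CYP2C91, a cytochrome P450, had log2 signals of 7.41, 7.67, 6.70, 7.13 and 6.80 in the LAD and of 9.31, 9.22, 7.74, 10.78 and 9.17 in the RCA, a difference of -2.10 ± 0.46 (SE; limma, unadjusted p = 0.000602). RAPGEF1, an exchange factor that activates RAP1 in cell adhesion, averaged -1.56, SFT2D1, a vesicle transport protein, -1.26, and ZNF568, a zinc finger repressor, -2.15. Dim probe sets below the filter gave 0.58 for RAPGEF1 and 1.25 and 1.77 for ZNF568. The steadiest of the 4 over pigs was SFT2D1, with differences from -1.67 to -0.70. CATSPER2, a sperm ion channel subunit, had the smallest p in this direction with a mean of -2.24 and was lower in 5 of 5 pigs, while 1 of its other probe sets gave 0.10. NAAA, a lysosomal amidase, averaged -1.86, CEPT1, a phospholipid synthesis enzyme, -1.95, and JMJD7 -1.66.

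The lists that bear on flow, lining cells and growth control lay near the median of all genes or differed in direction between pigs. Of 17 flow-responsive genes 9 had a positive and 8 a negative mean difference, with a median of 0.12 that was -0.11 without ZES pig 4757. KLF2, a factor that laminar flow induces in endothelium, had differences of -0.79, -0.03, 0.21, 1.64 and 0.17, and NOS3, the endothelial nitric oxide synthase, of -1.36, 0.61, 1.14, 0.62 and -0.41. Neither had a direction that held over the pigs. CAV1, the coat protein of caveolae in endothelium and smooth muscle, had 0.00, 0.36, 1.14, 1.53 and 0.20. Of 17 endothelial genes 12 had a positive mean difference, with a median of 0.20 that was 0.49 without BMS pig 4746, and PECAM1, an adhesion protein of endothelium and leukocytes, had -0.81, -0.07, 0.76, 1.64 and 0.62. The 17 fat cell genes, which mark tissue around the artery, had a median of 0.08, and of -0.02 after median centring.

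Cell cycle genes, the usual readout of the drugs on these stents, were lower in the LAD on average: 15 of 20 had a negative difference, against 49.4% of all genes, 3 with an unadjusted p under 0.05, against 3.38%, and the median was -0.56. The median was -0.26 without ZES pig 4757, and the pig medians were 0.22, -0.68, -0.59, -1.15 and -0.25. TOP2A, the topoisomerase of dividing cells, read 6.71, 8.89, 8.04, 6.68 and 7.44 in the LAD and 7.61, 9.72, 8.82, 8.94 and 7.97 in the RCA, lower in the LAD of every pig with a mean difference of -1.06. Of the 20, 10 were not above background on every array. The drug-binding protein FKBP1A differed by 0.25, -0.13, -0.68, 0.12 and -0.04 and its relative FKBP5 by -0.44, 0.12, -0.57, 0.39 and 0.18, both centred near 0. Among 57 cytosolic ribosomal protein genes 54 had a positive mean difference, 0 of them with an unadjusted p under 0.05, and the median was 0.15. That median was 0.04 after median centring and -0.07 without ZES pig 4757. By pig it was -0.50 and -0.55 in the BMS pigs and 0.40, 1.02 and 0.35 in the others. Of all genes, 13.1% divided between these pigs, as did the number of probe sets at 0. For the list this division was not tested.

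**Figure D4:**
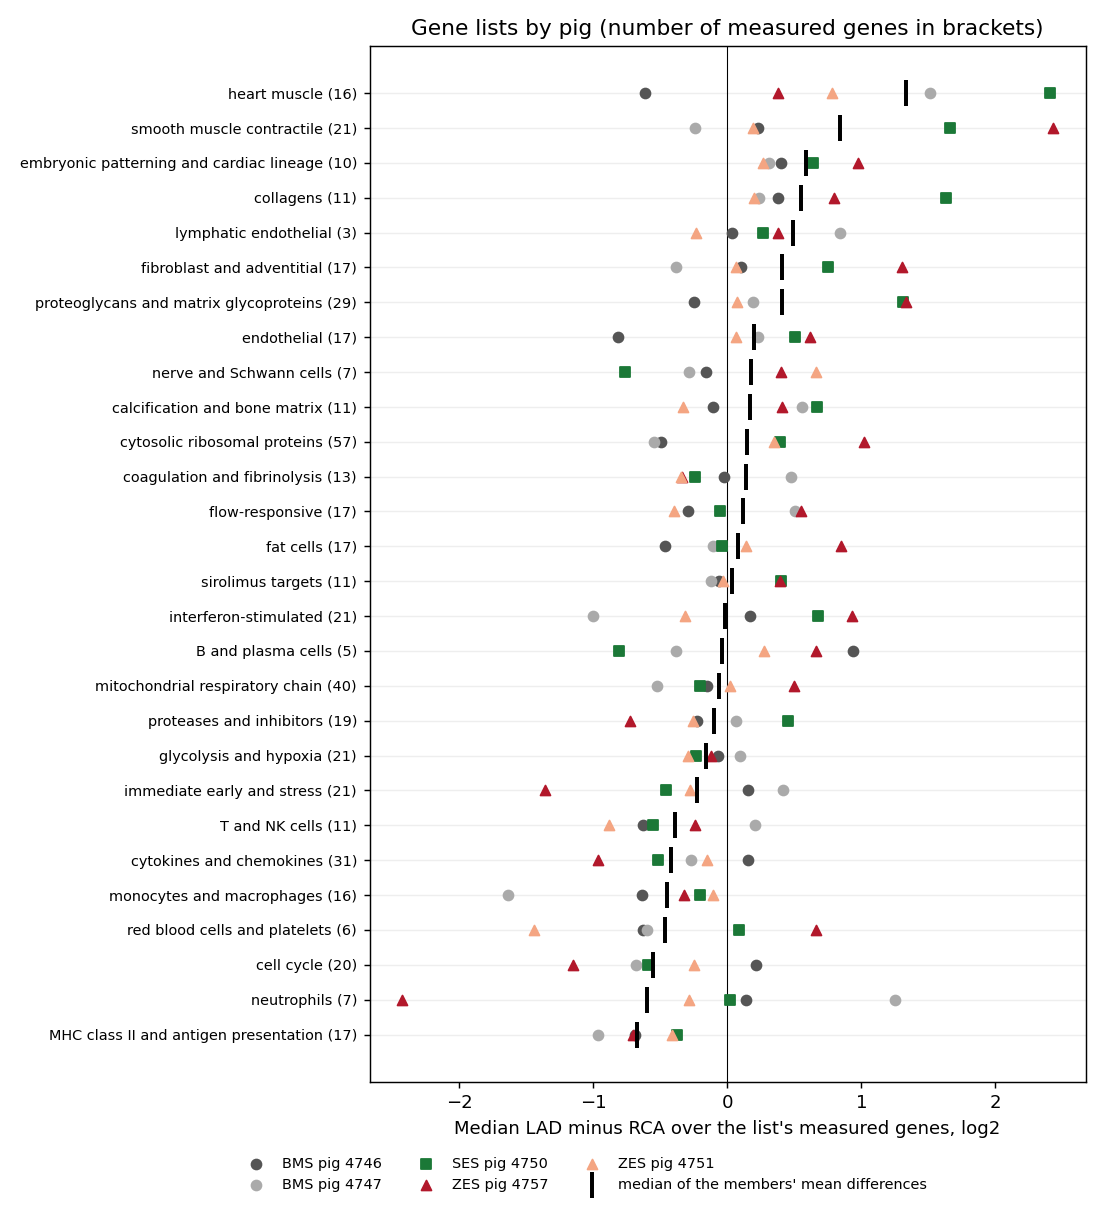
Median LAD minus RCA difference (log2) over the measured genes of each of 28 lists, 1 symbol a pig, with the median of the genes' mean differences as a black tick and the number of measured genes in brackets. The MHC class II list has all 5 pigs left of 0, and the collagen and patterning lists have all 5 right of 0; the contractile list spreads from -0.24 to 2.43.

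The artery differences were little shared between pigs. With 1 array an artery in each pig, a pig's own difference and the noise of its arrays cannot be told apart. Over the 16799 probe sets, the LAD minus RCA difference of BMS pig 4746 correlated with that of BMS pig 4747 at r = 0.037, and those of BMS pigs with those of drug-eluting pigs at -0.069 to -0.004. The 3 pigs with drug-eluting stents were more alike, with r of 0.226 for pigs 4750 and 4757, 0.125 for the 2 ZES pigs and 0.093 for pigs 4750 and 4751. Pigs 4750 and 4757 were also those whose RCA arrays had the most probe sets at 0 (770 and 1153). For probe sets at 0, LAD minus RCA was 238 and 193 in the BMS pigs and -481, -654 and -268 in the others. Whether the likeness went with the stents or with the arrays was not tested. The correlations are descriptions over probe sets, which share arrays and are not replicates. Of the variation of a probe set over the 10 arrays, the artery took a median of 6.96% (1 of 9 degrees of freedom), the pig 45.8% (4 degrees) and the remainder 39.9% (4 degrees). The LAD and RCA arrays of 1 pig correlated at a median of 0.815, no closer than arrays of the same artery from pigs with other stents, whose median was also 0.815.

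**Figure D5:**
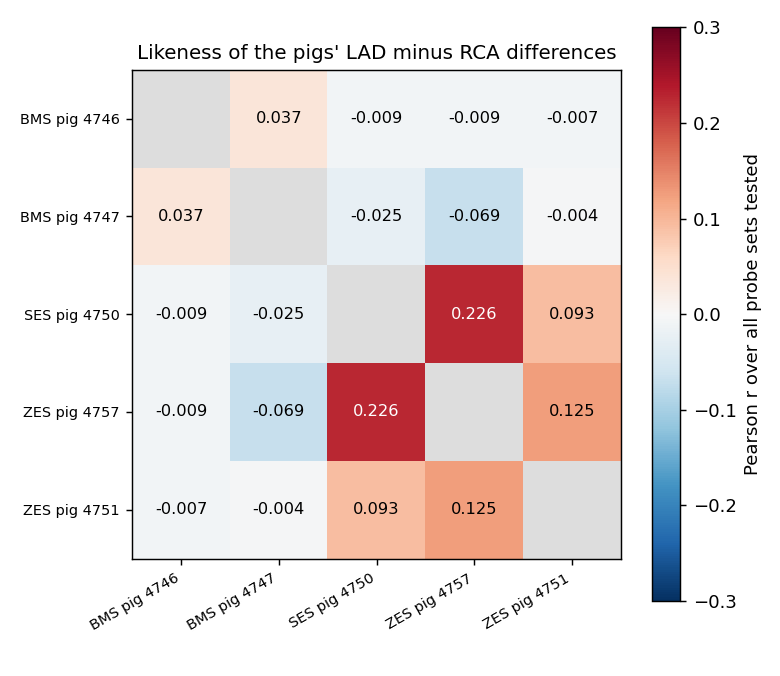
Pearson correlation, over 16799 probe sets, of the LAD minus RCA differences of each pair of pigs, on a colour scale from -0.3 to 0.3. The darkest cell is the SES pig with ZES pig 4757 at 0.226, and the cells joining BMS pigs with the others lie between -0.069 and -0.004.

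Whether the artery difference differed with the kind of stent was tested on the within-pig differences, 3 pigs with drug-eluting stents against 2 with BMS. By limma, 0 of 16799 probe sets (0%) had an adjusted p under 0.05, the smallest being 0.514, and 1500 (8.93%) had an unadjusted p under 0.05. The contractile genes leaned one way, with 20 of 21 having a larger LAD excess in the drug-eluting pigs and a median of 1.5, against 55.6% of all genes. Of those 21, 1 had an unadjusted limma p under 0.05, against 4.23% of all genes with a positive difference and 3.14% with a negative one. By pig, the list's medians were 0.23 and -0.24 in the BMS pigs and 1.66, 2.43 and 0.19 in the others. ZES pig 4751 thus lay below BMS pig 4746. The LAD minus RCA number of probe sets at 0 also divided between BMS and drug-eluting pigs. Its part in the lean of the contractile genes was not tested. TAGLN had a mean artery difference of -0.21 in the BMS pigs and of 1.97 in the drug-eluting pigs, which differed by 2.18 (limma, adjusted p = 0.556). The MHC class II list did not divide by stent in direction, with every pig median below 0. Of its 17 genes 12 had a positive stent difference, against 55.6% of all genes. At an unadjusted limma p under 0.05 there were 2 positive and 1 negative, against 4.23% and 3.14% of all genes. The list's median was -0.81 in the BMS pigs alone and -0.43 in the drug-eluting pigs alone. With only 2 ZES pigs in the fit, 8 probe sets passed an adjusted p of 0.05 by limma, among them KRT8, CD1E, CD1.1 and PLEKHB1. In the BMS pigs alone and in the 3 drug-eluting pigs together 0 passed by limma, with 1109 and 2060 at an unadjusted p under 0.05.

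In the SES pig left out of the comparison, the LCX, the other branch of the left coronary artery, was set against the RCA as a single pair with no replicate. There the MHC class II list had a median of -0.40 and the patterning list one of 0.80, the same signs as for the LAD. MEIS2 was higher in the LCX by 1.23, and CXCR4 differed by -1.84. The contractile list had a median of -0.13 and the collagens of 0.09, and HSPA2 had a difference of -0.33, opposite to all 5 LAD pairs. IFI30 differed by -0.26 and SLA-DRA by -0.48.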

How the data were processed

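Total RNA of stented coronary segments was amplified, labelled with biotin and measured on the Affymetrix porcine array, 1 array a segment. Per the submitters' processing notes, signals came from Affymetrix Expression Console 5.0 with MAS5; the deposited values are log2 signals, and the linear trimmed mean of each array (2% off each end) was close to 500.2, which shows that the authors' values were scaled to 1 level. No further normalization was done. Of 24123 probe sets, 124 controls and the 30% with the lowest mean were left out, leaving 16799, and a gene was read from its probe set of 1 symbol with the highest mean (5793 genes). The platform table gave 1 symbol to 10069 probe sets, several to 198 and none to 13732. MAS5 values near the background are noisy, and a probe set was called above background where it passed the 95th percentile of 59 non-porcine control probe sets on that array. The precision is limited by the number of arrays.

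LAD minus RCA was tested with limma 3.58.1 (R 4.3.3, statmod 1.5.0; lmFit and eBayes with a variance trend), with the pig as a fixed block, since both arteries came from 1 animal, and Benjamini-Hochberg adjustment over all probe sets at 0.05. The random-effect correlation of a pig's 2 arrays around the stent means was -0.029. The stent interaction was tested with limma on 1 difference a pig, and array controls with an exact sign-flip test over 32 sign arrangements. The sign-flip p-values measure the spread over pigs. The limma p-values and SE rest on a variance drawn toward the trend over all probe sets. Their median total degrees of freedom were 12.3, against 4 residual ones. The limma SE of a gene can therefore be smaller or larger than its own spread over pigs gives. The test was tried on simulated data with known differences.

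The 28 gene lists, the named panel and the comparison itself were chosen with earlier results of these data known. Named were the 12 genes with the smallest p in each direction, since none passed the threshold, up to 3 genes of each list by p, and a panel; not every one is described. Alternatives were other blocks, pseudocounts, filters, normalizations, weights, covariates and subsets of pigs. Sequences and genome positions were not used here.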

Additional observations from a re-analysis of the deposited data

Results flagged for a closer look

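Of 134 groups of 5 values examined (array controls by artery, and the within-pig differences of the genes and lists described), 9 held a value far from the other 4, and chance gives about 1 such group in 20. The 3 prime minus middle difference of the actin control was 2.21 on the RCA array of BMS pig 4746, against 2.40 to 2.47 on the other RCA arrays. The 28S signal was 13.42 on the LAD array of ZES pig 4757, against 9.43 to 9.84 on the other LAD arrays. Among genes, ZES pig 4757 stood apart in 4: CXCL13, a chemokine that gathers B cells, with 2.21 against -1.78 to -1.09; MLLT3 with 2.56 against 1.39 to 1.46; RAPGEF1 with -3.40 against -1.45 to -0.83; and TOP2A with -2.26 against -0.89 to -0.53. The SES pig stood apart in LCK, with -5.60 against -1.70 to -1.15, and in ZNF568, with -0.64 against -2.72 to -2.27. BMS pig 4746 stood apart in CCL2, with 0.98 against -0.76 to -0.27.

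In 9 of the 90 genes and 2 of the 28 lists examined, every drug-eluting pig had an artery difference on one side of 0 and both BMS pigs on the other; over all 5793 genes 756 (13.1%) divided this way. For the genes the difference between stent classes was tested with limma and none passed. It was 1.45 for ACTA2 (adjusted p = 0.568), 2.18 for TAGLN (0.556), 2.14 for DCN (0.575), 1.45 for PECAM1 (0.566) and 1.08 for KLF2 (0.636), all with the larger LAD value in the drug-eluting pigs. It was -1.91 for CCL5 (limma, adjusted p = 0.527), -1.90 for KLF4 (0.517), a factor of smooth muscle switching and endothelium, -1.46 for FN1 (0.596) and -1.44 for VCAM1 (0.566), the adhesion molecule that holds leukocytes. The 21 immediate early and stress genes had mean pig medians that differed by -0.98 between drug-eluting and BMS pigs, and the 57 ribosomal protein genes by 1.11; for the lists the difference was not tested.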

How the results depend on the processing

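No probe set had an adjusted p under 0.05 in 25 of the 26 settings tried beside the reported one, the threshold of 0.1 included; with only the 2 ZES pigs 8 did, with 1447 at an unadjusted p under 0.05, and the cause was not tested. Leaving out each pig gave 0 adjusted and 793 to 1398 unadjusted, the lowest without SES pig 4750. Without the pig as a replicate block 0 passed, with 994 unadjusted when stent type was a fixed term and 950 with no term; the block as a random effect gave 0 and 949, so the block changed no call. With only the drug-eluting pigs there were 2060 unadjusted, and without the 2 pigs with the highest 28S signals 834. The test of stent class gave 0 in all its settings, with 1078 to 1973 unadjusted. Of 90 genes 60 kept their sign under every setting tried and 81 when 1 pig was left out; of 28 lists 7 and 16 did. The 7 were MHC class II, monocytes and macrophages, cytokines, collagens, patterning, cell cycle and the 3 lymphatic genes. Adjusting for the spike-in signal moved the contractile median from 0.84 to 0.62, heart muscle from 1.33 to 0.74 and cytokines from -0.42 to -0.12. The MHC class II median went from -0.67 to -0.69 and the collagen median from 0.55 to 0.60. Median centring moved the median of all genes to -0.10; it, quantile normalization or a pseudocount of 64 turned the sign of 3 lists near 0, fat cells, B cells and sirolimus targets. A limit is the 5 pigs over 3 stents: a difference of 1 was not detected in the simulation, and dim heart muscle and T cell genes were near background.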

Other observations

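JUN, ESAM, ADAM17, MBP and IBSP had 1 direction in all 5 pigs at their brightest probe sets, as did 4.04% of all genes upward and 4.45% downward. JUN, an immediate early transcription factor, had log2 signals of 9.75, 9.17, 9.58, 11.16 and 9.50 in the LAD and of 9.07, 8.0, 8.58, 9.78 and 9.21 in the RCA, a mean difference of 0.90 (limma, unadjusted p = 0.0178), while 16 of the 21 genes of its list had a negative one. ADAM17, the protease that sheds TNF, had differences of -0.97, -0.86, -1.34, -3.13 and -0.52 and a mean of -1.36, and its 3 other probe sets gave -1.52, -0.44 and -1.23. ESAM, an adhesion protein of endothelial junctions, had a mean of 1.57, but its 2 dim probe sets, below the filter, gave -1.35 and -2.66. MBP, the myelin protein, had a mean of -1.20 at its brightest probe set and of 3.85 at another, higher in all 5 pigs (limma, unadjusted p = 0.000278), so that its direction depends on the probe set. IBSP, a bone matrix protein, had a mean of -3.30 and was above background on 1 LAD and 4 RCA arrays.

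The 40 respiratory chain genes had a median of -0.06, with 5 lower in all pigs (4.45% of all genes were) and 0 with an unadjusted p under 0.05 by limma. The 21 interferon-stimulated genes had 10 positive and 11 negative mean differences, with pig medians from -1.0 to 0.93. The 21 genes of glycolysis and hypoxia had a median of -0.16. Neutrophil genes had a median of -0.60, of 0.25 without both pigs with high 28S signals, and of 0.45 without ZES pig 4757, the pig in which CXCL8, the main neutrophil attractant, was at 0 in the LAD and at 8.11 in the RCA.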
